A study of Mus musculus with 6 samples.

Results

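The genes described are the mitosis, centromere and spindle checkpoint genes of the array. They were chosen by name, with earlier results of these data known. The families taken were Cenp, Bub, Aurora (Aurk), Polo (Plk), Cdca and Smc. Cdc20, Mad2l1, Ttk, Nuf2, Tpx2, Nusap1, Prc1, Top2a, Mki67, Incenp, Pttg1, Espl1 and Ect2 were added, and kinesins and cyclins were left out. The patterns took 93 of 41174 probes, for 51 of 27670 genes. All 51 genes had a probe above the background filter, and 91 of the 93 probes were tested. The probes left out are further probes of Espl1 and Cenpc1. The rule also asks for Ndc80 and the Ncap genes of condensin, which the array lists under older names, so they are given apart.

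Cell division separates the copied chromosomes in a fixed order of steps. Each chromosome carries a centromere, marked by the histone variant CENP-A, on which the inner and then the outer kinetochore are built to bind spindle microtubules. The spindle checkpoint holds the cell until all kinetochores are bound, and the anaphase-promoting complex with its activator Cdc20 then releases separase, which opens the cohesin rings. In the embryonic kidney the nephron progenitors and the tips of the ureteric bud divide actively, so transcripts of these genes are part of its normal repertoire.

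RNA came from kidneys of E13.5 CD1 mouse embryos grown as explants on filters in DMEM/F12 with 10% FBS. Kidneys of a pair received either Scriptaid, a hydroxamic acid that inhibits histone deacetylases, or Nullscript, its inactive structural relative, each at 2.0 µg/ml for 6 hours. No untreated kidneys were analysed here. Both RNAs of a replicate were hybridised together on 2-colour Agilent 4x44k arrays, with Cy3 marking the Scriptaid RNA on 3 arrays and Cy5 on 3, which makes 3 biological replicates with 2 arrays each. The series text mentions dyes swapped on 2 of 4 arrays, whereas 6 arrays are labelled, and each array's own dye labels were used. The number of embryos per replicate is not given in the sources here. If replicates were not separate litters, the p-values measure only the spread between these samples.

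Channels are named by the drug in their labels, as the Scriptaid channel and the Nullscript channel. Ratios are log2 of the former over the latter, as the mean ± SD of 3 replicates, and a gene passed at a limma adjusted p under 0.05 over all 26499 genes. The direction of the labels is not settled. H1f0, Cdkn1a, Gsn and Txnip, which rise with histone deacetylase inhibitors in other cells, had ratios between -1.04 and -0.91. All 4 passed, so they were higher in the Nullscript channel. They were listed with earlier results of these data known, so they are not an independent check. Were the names the wrong way round, all signs below would turn. Between 91.5% and 96.5% of the spots per channel were well above background, and the number of arrays limits the precision. As background for the marker counts, 22.5% of all genes passed on the Scriptaid side and 23.7% on the other. Of 13 kidney markers, 10 were higher in the Scriptaid channel and 0 in the other, with a median ratio of 0.56. Their summed intensity was 75378 to 79903 in the Scriptaid channel and 41444 to 45168 in the other. Endothelial markers passed in that direction in 3 of 4 genes (9648 to 10051 against 6632 to 7258). Macrophage markers passed in 1 of 4 genes on each side (3555 to 4626 against 3310 to 4544). Red blood cell markers passed in 0 of 4 on the Scriptaid side and 2 on the other (23431 to 37242 against 28586 to 43151). For neuronal markers these counts were 1 and 3 of 4 (4855 to 5343 against 4516 to 5577). No marker was at 0: each was well above background on all 6 arrays. The part of these markers in the results on mitosis genes was not tested, and fewer cells of a type and less RNA per cell cannot be told apart in whole explants.

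Most mitosis genes were higher in the Scriptaid channel. Of 51 genes, 27 were higher in that channel, against a background of 22.5% of all genes, and 7 were higher in the Nullscript channel, against 23.7%. These are 52.9% and 13.7% of the mitosis genes. In either direction 34 passed, which is 66.7% beside 46.3% of all genes, and 17 did not pass. The median ratio was 0.20, beside -0.01 over all genes, and 38 of 51 ratios were above 0. The differences were mostly modest, with a highest ratio of 0.96. Of the genes that passed, 10 were at least 1.5-fold higher in the Scriptaid channel and 2 in the other. Over all 26499 genes these counts were 1692 and 1202. The median over the 51 genes lay between 0.13 and 0.31 on each of the 6 arrays. All 34 genes that passed had the same sign in the 3 replicates, and 28 of them on all 6 arrays. A gene that passes is nearly bound to have 1 sign in its replicates, so this adds no support. Passed or not, 42 of the 51 genes had 1 sign in the 3 replicates, beside 18460 of all 26499 genes. The first slide held replicates 1 and 2 and the second replicate 3. Of the mitosis genes, 26 passed within the first, and all 26 had the same sign on the second. The share of all genes that kept their sign in this way was not counted. That fit, which leaves replicate 3 out, gave 22 and 4 genes on the 2 sides. With the slide as a block 25 and 4 passed, and with the median of each array in place of loess 33 and 4. Of the 7 genes higher in the Nullscript channel, Plk3, Cenpj, Cenpp and Smc5 passed in these fits, and Cenph, Bub1 and Smc3 did not.

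**Figure D1:**
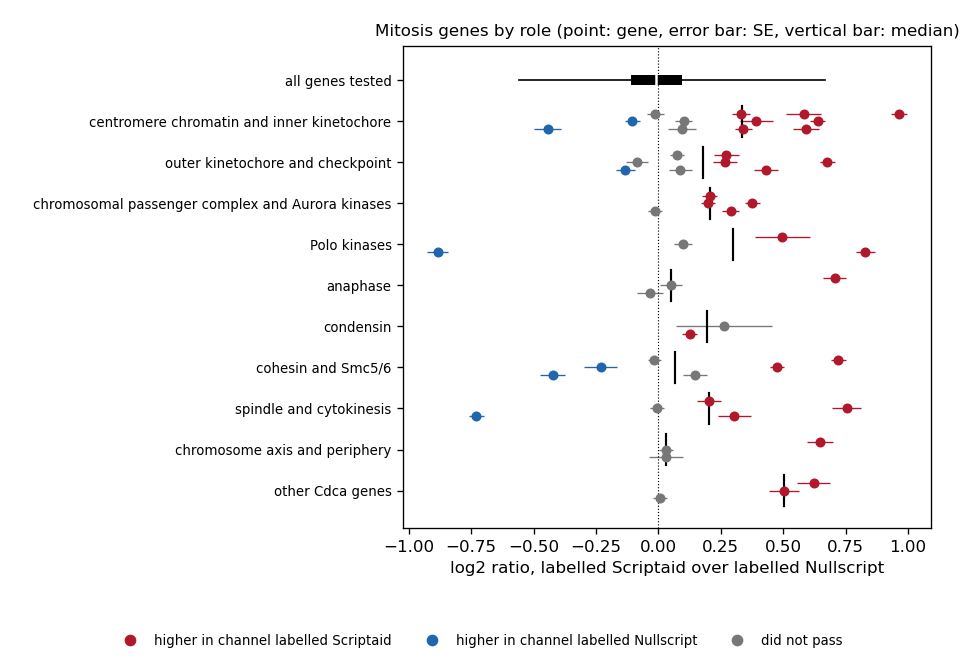
Log2 ratio (labelled Scriptaid over labelled Nullscript, horizontal axis) of each of the 51 mitosis genes, set out by role, with its SE over 3 replicates from limma and the median of each role as a vertical bar. The top row gives the ratios of all 26499 genes, with the median as a white mark, a thick bar from the 25% to the 75% quantile and a thin line from the 5% to the 95% quantile. Most points lie to the right of 0, and each of the Polo kinases, the cohesin and Smc5/6 group and the inner kinetochore holds genes that passed on both sides.

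**Figure D2:**
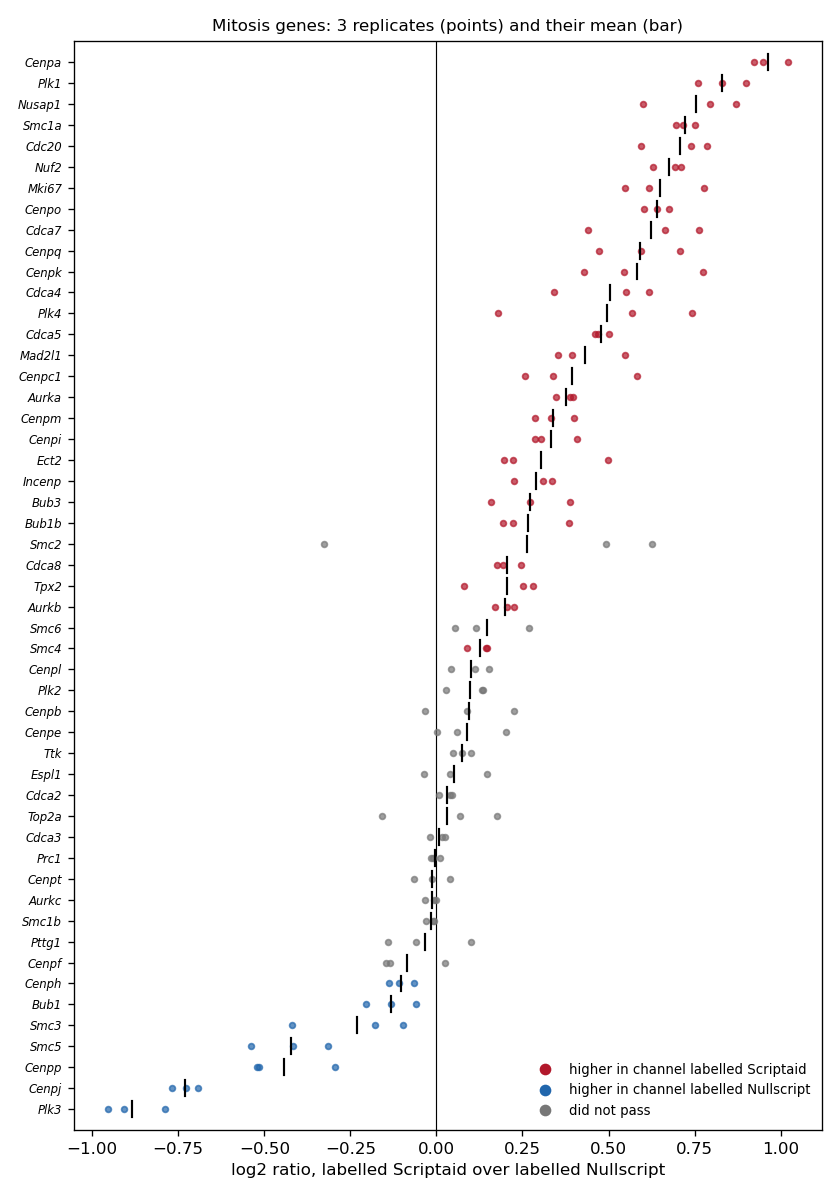
Log2 ratio of every mitosis gene in the 3 replicates (points) with the mean (bar), ordered by the mean and coloured by direction among genes that passed. Cenpa stands at the top with 0.92 to 1.02 and Plk3 at the bottom with -0.95 to -0.79, and Smc2 has 1 replicate at -0.33 apart from the others.

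Promoters are shown for the 4 mitosis genes with the largest ratios and the 2 nearest to 0, and for Plk3, the gene with the lowest ratio, which was chosen after its value was seen. Many mitotic genes are known to be read through a CHR element, bound by the DREAM and MuvB complexes, with CCAAT boxes upstream that NF-Y binds. The sequences are RefSeq promoters of GRCm38.p6, from 250 bases before to 50 after the start site, written 5′ to 3′ along the gene's strand. Capitals mark every TTTGAA or TTTAAA (the CHR words searched) and every CCAAT, on both strands, so that a CCAAT on the other strand reads ATTGG. No match overlapped another in these windows.
Cenpa (chr5:30666636-30666935, plus strand): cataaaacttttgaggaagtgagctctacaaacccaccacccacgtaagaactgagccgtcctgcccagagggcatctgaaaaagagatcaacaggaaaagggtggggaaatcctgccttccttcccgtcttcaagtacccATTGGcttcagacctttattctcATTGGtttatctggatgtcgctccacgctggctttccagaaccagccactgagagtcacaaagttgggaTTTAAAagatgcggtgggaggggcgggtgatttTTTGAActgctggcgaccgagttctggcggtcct
Plk1 (chr7:122159185-122159484, plus strand): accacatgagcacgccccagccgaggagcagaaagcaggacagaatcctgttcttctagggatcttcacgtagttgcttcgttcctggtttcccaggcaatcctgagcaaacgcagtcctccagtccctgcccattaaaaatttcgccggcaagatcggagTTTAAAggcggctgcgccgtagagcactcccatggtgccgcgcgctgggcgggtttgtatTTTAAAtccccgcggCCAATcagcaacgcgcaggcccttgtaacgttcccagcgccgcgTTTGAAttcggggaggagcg
Nusap1 (chr2:119618048-119618347, plus strand): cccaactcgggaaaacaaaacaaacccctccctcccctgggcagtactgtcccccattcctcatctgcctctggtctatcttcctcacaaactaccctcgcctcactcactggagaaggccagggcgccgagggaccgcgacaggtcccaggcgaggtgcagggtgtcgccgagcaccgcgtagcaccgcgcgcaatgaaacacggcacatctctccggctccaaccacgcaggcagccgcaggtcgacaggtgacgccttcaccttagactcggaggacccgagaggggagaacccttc
Smc1a (chrX:152016178-152016477, plus strand): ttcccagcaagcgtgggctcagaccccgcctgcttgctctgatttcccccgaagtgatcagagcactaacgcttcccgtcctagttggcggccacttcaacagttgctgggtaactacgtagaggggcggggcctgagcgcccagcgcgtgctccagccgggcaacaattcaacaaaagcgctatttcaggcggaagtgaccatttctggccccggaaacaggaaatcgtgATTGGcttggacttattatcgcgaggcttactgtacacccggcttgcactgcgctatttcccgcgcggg
Prc1 (chr7:80294201-80294500, plus strand): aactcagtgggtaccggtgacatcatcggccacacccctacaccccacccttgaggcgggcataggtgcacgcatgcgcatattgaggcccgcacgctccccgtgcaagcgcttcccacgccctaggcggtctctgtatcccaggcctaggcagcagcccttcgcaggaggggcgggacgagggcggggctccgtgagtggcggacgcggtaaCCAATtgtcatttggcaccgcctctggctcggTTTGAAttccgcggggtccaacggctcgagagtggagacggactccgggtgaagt
Cdca3 (chr6:124829926-124830225, plus strand): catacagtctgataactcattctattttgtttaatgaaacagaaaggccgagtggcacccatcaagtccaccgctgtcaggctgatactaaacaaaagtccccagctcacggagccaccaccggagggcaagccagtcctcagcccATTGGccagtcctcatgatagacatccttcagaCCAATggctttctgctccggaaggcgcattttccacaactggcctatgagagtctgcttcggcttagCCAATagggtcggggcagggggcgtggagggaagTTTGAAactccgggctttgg
Plk3 (chr4:117133914-117134213, minus strand): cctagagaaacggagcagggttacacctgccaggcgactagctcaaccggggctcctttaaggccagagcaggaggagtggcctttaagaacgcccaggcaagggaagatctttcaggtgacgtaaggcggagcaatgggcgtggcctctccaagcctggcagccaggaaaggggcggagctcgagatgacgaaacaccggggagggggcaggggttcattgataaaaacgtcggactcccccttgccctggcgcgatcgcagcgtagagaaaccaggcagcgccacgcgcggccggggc

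The Cenpa window held ATTGG at -109 and -86 from the start site and CHR words at -17 and 17. Plk1 had TTTAAA at -89 and -29, CCAAT at -14 and TTTGAA at 31. Prc1 and Cdca3, the genes nearest to a ratio of 0, carried both motifs as well. Smc1a had 1 CCAAT word and no CHR word, and neither word was found in the windows of Nusap1 and Plk3. A promoter was listed for 46 of the 51 genes. A CHR word was present in 24 of them (52.2%, beside 27.8% of 27025 promoters), a CCAAT word in 28 (60.9%, beside 37.9%), and both in 19 (41.3%, beside 10.9%). Both were present in 10 of 23 promoters of genes higher in the Scriptaid channel, in 0 of 7 of those higher in the other, and in 9 of 16 of those that did not pass. A CHR word, with or without CCAAT, was counted in 12, 0 and 12 of these promoters. Such matches describe the letters of the window only.

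Counts by role, here and below, stand beside 22.5% of all genes on the Scriptaid side and 23.7% on the other. Each role holds few genes. Of 12 genes of the centromere and inner kinetochore, 7 passed on the Scriptaid side (58.3%) and 2 on the other (16.7%), with a median ratio of 0.34. Cenpa, the histone H3 variant that marks the centromere, had log2 levels of 13.63, 13.66 and 13.56 in the Scriptaid channel and of 12.61, 12.73 and 12.61 in the other. The groups did not overlap, and the ratio of 0.96 ± 0.05 (SD, n = 3) was the largest of the 51 (1.95-fold, limma adjusted p = 0.000134). A lack of overlap is told here and below for genes with large ratios only. Tpx2, Smc4, Bub1 and Smc3 passed although their levels overlapped between channels, and the share over all genes was not counted. A further probe of Cenpa had -0.05, 0.03 and 0.02, with a mean of 0.00, and did not pass, so the difference was seen by 1 of its 2 probes. The mean over both probes was 0.48 and passed. Cenpc1, which binds CENP-A nucleosomes and joins them to the outer kinetochore, had 0.39 ± 0.17 (limma adjusted p = 0.00748).

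Genes of one kinetochore subcomplex differed among themselves. Cenpo, Cenpp and Cenpq encode subunits of the same inner kinetochore complex. Cenpo had ratios of 0.60, 0.64 and 0.68 and Cenpq 0.71, 0.47 and 0.59 in replicates 1, 2 and 3, and both passed (limma adjusted p = 0.000183 and 0.000756). Cenpp had -0.29, -0.52 and -0.51, so all 3 replicates lay on the other side (limma adjusted p = 0.00243). Within replicates the ratio of Cenpo exceeded that of Cenpp by 1.08 ± 0.16, and the ratio of Cenpq did so by 1.03 ± 0.06 (SD, n = 3). The probes bear on this: a further probe of Cenpp passed with -0.38 while another stood at 0.00, and those of Cenpo had 0.27, which passed, and -0.05, which did not. In the CENP-H/I/K/M group, Cenpk had 0.77, 0.43 and 0.54, Cenpm a mean of 0.34 and Cenpi of 0.33. By a further probe Cenpk passed with 0.54, and by the other it had 0.01 and did not pass. Cenph of the same group had -0.14, -0.11 and -0.07, a mean of -0.10 near the threshold (limma adjusted p = 0.0426). Its call was lost with any 1 replicate left out (-0.12 to -0.09, limma adjusted p = 0.119 to 0.135) and its further probe had 0.06. Cenpl, Cenpb, which binds centromeric repeats, and Cenpt had ratios of 0.10, 0.09 and -0.01 and did not pass. A further probe of Cenpl passed with 0.17 (limma adjusted p = 0.0104), and so did the mean over its probes (0.14, limma adjusted p = 0.0167).

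In the outer kinetochore and spindle checkpoint 4 of 8 genes were higher in the Scriptaid channel and 1 in the other, with a median of 0.18. Nuf2, listed on the array under its older name Cdca1, is a subunit of the NDC80 complex that grips microtubules. Its log2 levels were 11.85, 11.86 and 12.01 in the Scriptaid channel and 11.15, 11.23 and 11.32 in the other, without overlap, and the ratio was 0.68 ± 0.04 (limma adjusted p = 0.000175). A further probe of Nuf2 had 0.01, 0.00 and 0.03 and did not pass. Mad2l1, the checkpoint protein that sequesters Cdc20, had 0.55, 0.35 and 0.39, and its other probe passed too with 0.41. Bub3 and Bub1b act in the same inhibitory complex, and their ratios were 0.27 ± 0.12 and 0.27 ± 0.10 (limma adjusted p = 0.00975 and 0.00809). Bub3 had 0.39, 0.16 and 0.27 and lost its call without replicate 3 (limma adjusted p = 0.0678).

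Bub3 was the 1 mitosis gene with probes that passed in opposite directions, at 0.27 by 2 probes and at -0.10 by another, while its remaining probe had 0.07 and did not pass. The kinase Bub1, which brings Bub1b to the kinetochore, had -0.06, -0.20 and -0.13, so it lay on the side of the Nullscript channel (mean -0.13, limma adjusted p = 0.0423). Its call was lost without replicate 2 (-0.10, limma adjusted p = 0.148) and without replicate 3 (-0.13, limma adjusted p = 0.185). The ratio of Bub1b exceeded that of Bub1 by 0.40 ± 0.12 within replicates. The checkpoint kinase Ttk (0.07), the motor protein Cenpe (0.09) and Cenpf (-0.08) did not pass, and Cenpf passed with replicate 2 left out (-0.14, limma adjusted p = 0.0448).

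The chromosomal passenger complex corrects faulty attachments between kinetochore and spindle through Aurora B. Of its genes and the other Aurora kinases, 4 of 5 were higher in the Scriptaid channel and 0 in the other, with a median of 0.21. Aurka, the Aurora kinase of the spindle poles, had 0.35, 0.39 and 0.40 with a mean of 0.38 ± 0.03 ( limma adjusted p = 0.00053). Incenp, the scaffold of the complex, had 0.23, 0.31 and 0.33, and Cdca8, which encodes borealin, had 0.18, 0.25 and 0.19, with its spot saturated in the Scriptaid channel on 1 array. Aurkb itself had a mean of 0.20 ± 0.03 (limma adjusted p = 0.00421). With only the 3 arrays that have Scriptaid in Cy3, Incenp had 0.04, Cdca8 -0.01 and Aurkb 0.12, and none of these passed. Aurkc, the Aurora kinase best known from germ cells, had -0.01.

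Of the 4 Polo kinases, 2 were higher in the Scriptaid channel and 1 in the other, with a median of 0.30. Plk1, the main mitotic Polo kinase, had log2 levels of 14.25, 14.21 and 14.34 in the Scriptaid channel and of 13.35, 13.45 and 13.51 in the other. The groups did not overlap, and the ratio was 0.83 ± 0.07 (1.78-fold, limma adjusted p = 0.000172). Plk3, a Polo kinase linked to stress responses rather than to mitosis, had 9.20, 9.09 and 9.03 in the Scriptaid channel and 10.11, 9.87 and 9.99 in the other, again without overlap. Its ratio of -0.88 ± 0.09 was the lowest of the 51 (1.85-fold, limma adjusted p = 0.000183), and the ratio of Plk1 exceeded it by 1.71 ± 0.14 within replicates. Both rest on 1 probe each. Plk4, which starts centriole duplication, had 0.18, 0.57 and 0.74 (mean 0.50, limma adjusted p = 0.0179). The call of Plk4 was lost without replicate 2 (0.46, limma adjusted p = 0.0662) and without replicate 3 (0.37, limma adjusted p = 0.0828), while a further probe passed with 0.56, 0.46 and 0.75. The dimmest probe of Plk4 was not well above background in the Nullscript channel on any array, and there the Scriptaid channel was at least 1.08-fold higher (ratio as measured 0.15). It entered the test only through the Scriptaid channel, so its pass supports nothing. This bound sets the Scriptaid mean against the lowest signal well above background, or the probe's own where higher. Plk2 had 0.10 and did not pass.

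Of the anaphase genes, Cdc20 passed and the other two did not. Cdc20, the activator of the anaphase-promoting complex, had 14.89, 15.13 and 15.08 on the log2 scale in the Scriptaid channel and 14.30, 14.34 and 14.34 in the other. The groups did not overlap, and the ratio was 0.71 ± 0.10 (limma adjusted p = 0.000354), with the spot saturated in the Scriptaid channel on 1 array. Pttg1, which encodes the securin that Cdc20 marks for destruction, had -0.14, 0.10 and -0.06, with the same kind of saturation on 1 array. The ratio of Cdc20 exceeded that of Pttg1 by 0.74 ± 0.06 within replicates. Espl1, the separase that securin holds inactive, had 0.05 ± 0.09.

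Cohesin holds sister chromatids together until anaphase, and the Smc5/6 complex acts on chromosomes during repair and separation. Of 6 genes, 2 were higher in the Scriptaid channel and 2 in the other. These are 33.3% and 33.3%, beside 22.5% and 23.7% of all genes, so for so few genes the counts lie near the background. Smc1a had log2 levels of 13.79, 13.90 and 13.84 in the Scriptaid channel and of 13.07, 13.15 and 13.14 in the other, without overlap. Its ratio was 0.72 ± 0.03 (1.65-fold, limma adjusted p = 0.00015), and its other probe passed with 0.84. Smc3, the partner of Smc1a in the cohesin ring, had -0.42, -0.18 and -0.10, a mean of -0.23 (limma adjusted p = 0.0437). The call of Smc3 was lost without any 1 replicate (-0.30 to -0.14, limma adjusted p = 0.0547 to 0.0836), and its other probe had -0.62, 0.40 and -0.32. The ratio of Smc1a exceeded that of Smc3 by 1.13, 0.93 and 0.79 in the 3 replicates.

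Cdca5, which encodes sororin, the protector of cohesion, had 0.50, 0.47 and 0.46 (limma adjusted p = 0.000278), and its other probe passed with 0.45. Smc5 had -0.32, -0.54 and -0.42 (mean -0.42, limma adjusted p = 0.00196), and its other probe had -0.23 and did not pass. Smc6, its partner, had 0.15 and did not pass. The other probes of Smc6 had 0.54, which passed, and 0.06, which did not, and without replicate 2 the gene passed with 0.19 (limma adjusted p = 0.0487). The difference between Smc6 and Smc5 was 0.57 ± 0.13 within replicates. Smc1b, the cohesin subunit of meiosis, had -0.02.

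Condensin compacts mitotic chromosomes, and its core is formed by Smc2 and Smc4. Smc4 had 0.14, 0.15 and 0.09 (limma adjusted p = 0.0215), and lost its call with any 1 replicate left out (0.12 to 0.15, limma adjusted p = 0.0694 to 0.0858). Smc2 had -0.33, 0.49 and 0.63, and the mean of 0.26 ± 0.51 did not pass. Its 2 arrays differed within replicate 1 (0.16 with Scriptaid in Cy3, -0.82 in Cy5) and within replicate 3 (1.19 and 0.06). In replicate 2 they had 0.44 and 0.54. Without replicate 1 the ratio of Smc2 was 0.56 (limma adjusted p = 0.0016), and 2 of its 3 other probes passed in the full data, with 0.31 and 0.30. Among the condensin subunits listed under older names, Ncapg2 (0.18) and Ncapd2 (0.15) were higher in the Scriptaid channel, Ncapd3 of condensin II (-0.33) was higher in the other, and Ncaph (0.09) and Ncapg (-0.03) did not pass.

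Among 5 genes of the spindle, centrioles and cytokinesis, 3 were higher in the Scriptaid channel and 1 in the other. Nusap1, which bundles spindle microtubules, had log2 levels of 12.77, 12.68 and 12.90 against 11.90, 12.08 and 12.11, without overlap (ratio 0.76 ± 0.14, limma adjusted p = 0.000556). A further probe of Nusap1 had -0.04, -0.11 and -0.22 and did not pass. Cenpj, a centriole protein despite its centromere name, had 11.68, 11.48 and 11.57 in the Scriptaid channel and 12.38, 12.21 and 12.34 in the other. Its ratio of -0.73 ± 0.04 came next to that of Plk3 (limma adjusted p = 0.000155). Ect2, the exchange factor that starts the cleavage furrow, had 0.50, 0.20 and 0.22 and lost its call without replicate 3 (0.35, limma adjusted p = 0.0614). Tpx2, which activates Aurora A on the spindle, had 0.28, 0.08 and 0.25. Its call was lost without replicate 1 (0.17, limma adjusted p = 0.0721) and without replicate 3 (0.18, limma adjusted p = 0.136). Prc1, which bundles the midzone, had -0.01 ± 0.01.

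Mki67, the coat protein of mitotic chromosomes known as the Ki-67 antigen, had log2 levels of 14.19, 14.15 and 14.29 against 13.41, 13.60 and 13.67. The channels did not overlap, and the ratio was 0.65 ± 0.12, with 0.65 by its other probe as well (limma adjusted p = 0.000595). Top2a, which untangles sister DNA, had -0.16, 0.07 and 0.18, and none of its 3 probes passed. Cdca2, which targets a phosphatase to chromosomes, had 0.03 by its brightest probe, while both of its further probes passed, with 0.50 and 0.48. The other Cdca genes were Cdca7, a cofactor of chromatin remodelling (0.76, 0.44 and 0.66, limma adjusted p = 0.00153), Cdca4, a regulator of E2F-dependent transcription (0.55, 0.34 and 0.62, limma adjusted p = 0.00208), and Cdca3, which takes part in mitotic entry (0.02, 0.02 and -0.02). Cdca7 and Cdca4 have 1 probe each, and Cdca3 had 0.13 by a further probe that passed.

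Several probes were tested for 27 of the 51 genes. Over all 91 probes, 46 were higher in the Scriptaid channel (background 23.5% of all probes) and 9 in the other (background 21.8%), 60.4% in either direction beside 45.2%. The 34 genes that passed had 25 further probes, of which 21 had the same sign, 13 passed in the same direction and 1 passed in the other. The 46 and the 13 include the dimmest Plk4 probe, which met the background filter only through the Scriptaid channel. In Cenpa, Nusap1, Cenpo, Nuf2 and Cenpk the probes of the gene differed by over 0.5. After these values were seen, probes were split by the kind of sequence they were listed with. In 12 genes with a probe listed with a RefSeq transcript and one listed with a cDNA clone of the AK series, the RefSeq probe passed in 11 and the clone probe in 3, the dimmest Plk4 probe among the latter. Clones of the BC series were not part of this split, and in Smc6 a BC probe passed with 0.54 while the RefSeq probe had 0.15 and did not. The absolute ratio was larger by the RefSeq probe in 11 of the 12, with medians of 0.47 and 0.04. Over the whole array 52.4% of 25018 RefSeq probes passed, beside 29.3% of 9586 AK probes, mitosis genes included. The AK probes of mitosis genes had a median log2 signal of 8.01 beside 11.54 for RefSeq probes, and the part of signal in this difference was not tested.

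**Figure D3:**
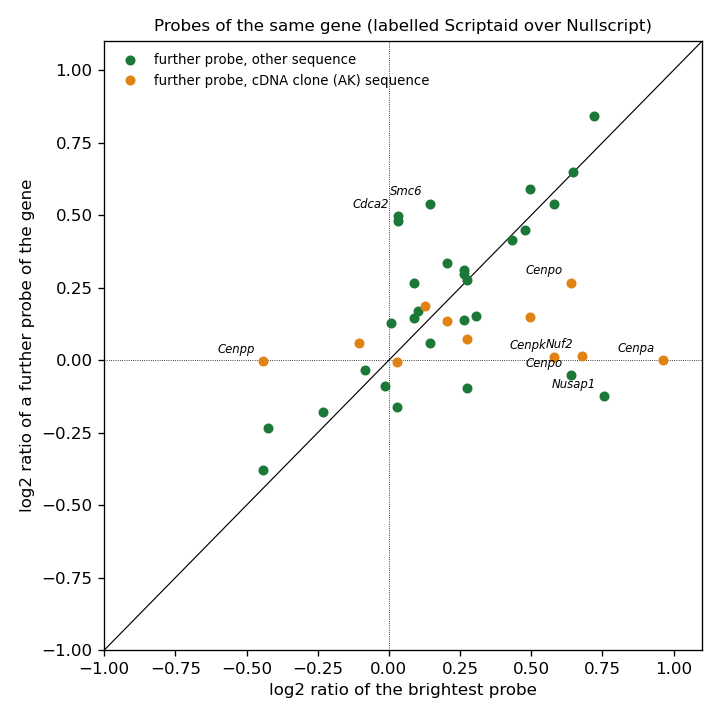
Log2 ratio of the brightest probe of a mitosis gene (horizontal axis) against that of each further probe of the gene (vertical axis), with the line of equal values. Orange points are probes listed with a cDNA clone of the AK series, and most of them lie near 0 on the vertical axis, as for Cenpa (0.96 and 0.00) and Nuf2 (0.68 and 0.01).

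The ratio of some mitosis genes, read by the brightest probe, differed between the 2 dye orientations. The ratio with Scriptaid in Cy5 minus the ratio with Scriptaid in Cy3 passed for 9 of 51 genes (17.6%, beside 5.53% of all genes). All 9 differences were positive. Of the 9, Pttg1, Cdca8, Cdc20, Smc4, Cenpe, Incenp and Cdca3 were the brightest of the 51 genes, with mean log2 signals of 14.18 to 14.95. Cenpf and Plk2 had 13.20 and 12.49. The share over all genes was not taken at like signal, and the part of signal in the dye difference was not tested. Cdc20 kept its side in both, with 0.40, 0.57 and 0.50 on the Cy3 arrays and 0.79, 1.00 and 0.98 on the Cy5 arrays. By these probes Cdca3, Pttg1 and Cenpf had opposite signs in the 2 orientations on all arrays. Their means near 0 are thus averages of unlike values. Further probes were not tested for a dye difference. The further probe of Cdca3 had 0.01, 0.19 and 0.13 on the Cy3 arrays and 0.12, 0.09 and 0.24 on the Cy5 arrays. That of Cenpf had 0.06, -0.15 and -0.12 against 0.13, -0.17 and 0.04. In Cenpe 1 further probe had 0.26, 0.22 and 0.59 against -0.17, 0.00 and -0.02. The other had 0.66, -0.15 and 0.45 against 0.46, 0.09 and 0.08.

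**Figure D4:**
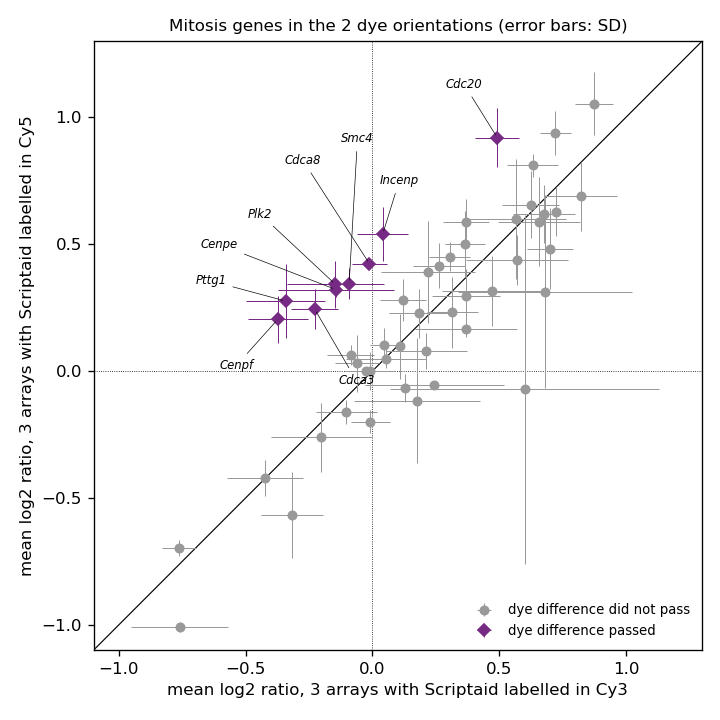
Mean log2 ratio of each mitosis gene over the 3 arrays that have Scriptaid in Cy3 (horizontal axis) and the 3 that have it in Cy5 (vertical axis), with SD bars and the line of equal values. Purple diamonds mark the 9 genes whose dye difference passed, and all of them lie above the line, Pttg1 at -0.34 and 0.28.

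A list of 65 other genes of mitosis that the name patterns do not take was read beside these, with kinesins and cyclins left out. Of the 65, 1 of which (Anapc5) had values in 2 replicates, 39 were higher in the Scriptaid channel and 7 in the other. These are 60% and 10.8%, beside 22.5% and 23.7% of all genes, and the median ratio was 0.27. The largest ratios were those of Stag1, a cohesin subunit (1.08 ± 0.13), Spc24 of the NDC80 complex (0.97 ± 0.15), Numa1, which anchors spindle poles (0.96 ± 0.02), and Gtse1, a microtubule-binding protein of G2 and M (0.91 ± 0.04). The lowest were those of Lin54, the subunit through which MuvB binds CHR elements (-0.75 ± 0.14), Spc25 (-0.32 ± 0.12), the checkpoint protein Mad1l1 (-0.31 ± 0.05) and Zwilch (-0.27 ± 0.02). The NDC80 complex was thus split, with Nuf2 at 0.68, Spc24 at 0.97, Ndc80 at 0.18 and Spc25 at -0.32, all of which passed. Rad21, Lin9, Mybl2 and Foxm1 were chosen after their values were seen. Rad21, which closes the cohesin ring of Smc1a and Smc3, had 0.75 ± 0.11. Lin9, a MuvB subunit like Lin54, had 0.70 ± 0.12, and the mitotic transcription factors Mybl2 and Foxm1 that join MuvB had 0.48 ± 0.09 and 0.57 ± 0.08.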

How the data were processed

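Per the file headers, the deposited scanner files were written by Agilent Feature Extraction 9.1.3.1. They give each spot's mean intensity, background intensity and a log10 ratio of Cy5 over Cy3. The authors' value table, deposited for the series, is in log10 ratios as well, but was read as labelled Scriptaid over labelled Nullscript on all 6 arrays. In limma 3.58.1 under R 4.3.3, intensities were corrected with normexp (offset 50) and then put through loess within each array. Control spots had weight 0, outlier-marked spots were left out and saturated spots stayed in. Probes had to be well above background for either drug on 3 or more of the 6 arrays, and the brightest probe stands for a gene. Names came from accessions for 22944 probes, current symbols for 6664 and older symbols for 3108, and 8458 kept the file's name. The 2 arrays of a replicate were averaged. Replicate means were tested against 0 (lmFit, eBayes, n = 3) and adjusted by Benjamini-Hochberg over all genes. The dye difference was tested likewise. The fit of replicate means was also run on simulated data. These had independent noise for each array and few shifted probes, unlike the real data, so that run does not bear on the calls here. Channel levels are log2 values after loess and Aquantile, and summed marker intensities are their linear values. Per the labels, the arrays of a replicate share their sample. Their deviations from the means of the 2 orientations had correlations of 0.61, 0.15 and -0.03 (replicates 1, 2 and 3). For replicates 2 and 3 the pairing of arrays thus rests on the labels alone. All members may be named. Replicate values are given for up to 3 genes per role with the largest ratios, those opposite to most, and those whose probes differ by over 0.5 or in call direction. Members and lists were chosen with earlier results of these data known.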

Additional observations from a re-analysis of the deposited data

Results flagged for a closer look

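For 9 mitosis genes the ratio of the brightest probe differed between arrays with Scriptaid labelled in Cy5 and those with it in Cy3. The test was limma on 3 paired differences, adjusted over all genes. The difference was 0.62 in Pttg1, 0.58 in Cenpf, 0.50 in Incenp, 0.49 in Plk2, 0.47 in Cdca3 and 0.46 in Cenpe. It was 0.44 in Smc4, 0.43 in Cdca8 and 0.43 in Cdc20. The limma adjusted p ran from 0.00361 in Cenpf to 0.0387 in Plk2. In Cdca2 (-0.20) and Cenpt (0.15) all arrays of one orientation had the sign opposite to all arrays of the other, but the dye difference did not pass (limma adjusted p = 0.117 and 0.226). Of these 11 genes, Cdc20, Incenp, Cdca8 and Smc4 passed in the comparison of the drugs.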

How the results depend on the processing

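Each of the 34 genes that passed was read under 17 alternatives. Of 578 values, 536 kept direction and call, 40 lost the call and 2 changed sign, and 23 genes kept the call throughout. These values are not separate checks. Changes of the background filter and the fits of 6 arrays left the members' median ratio at 0.20. Processed signals and the authors' value table both gave 0.18. The share of values kept over all genes was not counted. Cdca8 (-0.012) and Smc4 (-0.092) changed sign with Scriptaid labelled in Cy3 only. Members higher in the Nullscript channel numbered 4 with the array median in place of loess and with the slide as a block, and 4 to 5 with 1 replicate left out. The median ratio over all 51 members was 0.30 with the array median, 0.28 with Scriptaid in Cy5 only and 0.26 with the brightest probe that has a RefSeq accession, an alternative chosen after seeing the data. Member probes higher in the Nullscript channel numbered 5 with the slide as a block and 5 to 8 with 1 replicate left out, and the median over all 91 member probes was 0.22 with the array median. The median of the other mitosis genes was 0.36 with the array median, 0.35 without saturated spots, 0.35 with Scriptaid in Cy3 only, and 0.24 to 0.36 with 1 replicate left out. Over all genes, 3989 to 5695 were higher in the Nullscript channel with 1 replicate left out. The median of all genes was -0.047 with processed signals, -0.047 with the authors' value table, -0.033 with the array median, -0.020 with Scriptaid in Cy3 only and 0.0052 with Scriptaid in Cy5 only. Of the genes that passed, 79.4% of the mitosis genes lay on the Scriptaid side, and 75% to 89.2% under the alternatives. Over all genes that passed, this share was 48.7%, and 43.8% to 52.9% under the alternatives. The 6 arrays with a replicate block and a dye term gave 28 and 7 members, and 29 and 7 without the block. With the pairing in that block, Smc6 was the 1 member gene whose call changed (0.15, limma adjusted p = 0.0284).

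Among genes that did not pass, signs turned as follows, and the cause was not tested. With Scriptaid in Cy5 only, Smc2 had -0.073, Cenpb -0.056, Cdca2 -0.068, Top2a -0.12, Cenpt 0.061, Smc1b 0.030, Pttg1 0.28 and Cenpf 0.20. With Scriptaid in Cy3 only, Plk2 had -0.15, Cenpe -0.14 and Cdca3 -0.23. With the array median, Prc1 had 0.094, Cenpt 0.053, Aurkc 0.074, Pttg1 0.086 and Cenpf 0.015. With processed signals and with the authors' value table, Espl1 had -0.0028 and Pttg1 0.0043. Pttg1 had 0.021 without saturated spots, and Top2a had -0.047 as the mean over probes. With 1 replicate left out, Top2a ranged from -0.044 to 0.12, Cdca3 from -0.00011 to 0.021, Cenpt from -0.039 to 0.014 and Pttg1 from -0.10 to 0.021. All 51 genes were well above background on all 6 arrays for both drugs.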
